A study of Mus musculus with 3 samples.

Results

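The 10 genes described here mark trophoblast or simple epithelium: the keratins Krt7, Krt8, Krt18 and Krt19, the transcription factors Elf5, Tead4, Ascl2, Rhox6 and Rhox9, and the receptor gene Fgfr2. They were chosen by name, with earlier results of these data known. Every probe set that the platform annotation pairs with one of them was taken. That gave 18 probe sets of the 45101 on the array, for 10 of the 18193 genes that had a probe set of their own. Expression was measured in undifferentiated R1 cells, an established mouse embryonic stem (ES) cell line, on 3 Affymetrix arrays. The cells had received BMP4 at 20 ng/ml for 4 h, noggin at 100 ng/ml for 4 h, or no treatment, with 1 array for each condition. No genetic change beyond the R1 line itself was named for any of the 3 conditions, and no time was given for the untreated cells. With 1 array per condition there is no replicate error and no test, and every difference is given as a size, without a p-value.

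The outer layer of the blastocyst, the trophectoderm, gives rise to the trophoblast of the placenta and is the first epithelium of the mouse embryo. Its cells build filaments from keratins 8 and 18 and their relatives, which polymerise only as pairs of an acidic type I and a basic type II chain. Trophoblast fate is set up by TEAD4 with its co-activator YAP and is then held by factors such as CDX2, EOMES, GATA3 and ELF5, while FGF signals received through FGFR2 keep trophoblast stem cells dividing. BMP4 is a signalling protein that acts through SMAD transcription factors and is used to drive human ES cells towards trophoblast-like cells; mouse ES cells seldom take that path. Noggin, a secreted antagonist, captures BMPs before they reach a receptor. The comparisons ask how these transcripts stood after 4 h of added or blocked BMP.

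None of the 10 genes differed by 1.5-fold between any 2 of the 3 arrays. Values are log2 RMA expression values, so that a difference of 1 is a 2-fold difference and the 1.5-fold limit lies at 0.58. A gene was represented by its probe set with the highest mean, and it was counted as above the floor where its highest value exceeded 3.44, the median of all values on the arrays. By this measure 8 of the 10 genes were above the floor and 2, Krt7 and Elf5, were below it on every array. Of all genes, 63.7% were above the floor. Above the floor, 1 of the 8 was higher with BMP4 than without treatment, 5 were lower and 2 were exactly equal, with a median difference of −0.09. Over all 11594 genes above the floor 2871 were higher with BMP4, 4129 lower and 4594 equal. Their median was 0.00, and 0.276% differed by at least 1.5-fold in either direction. With noggin, 2 of the 8 were higher than in untreated cells, 2 were lower and 4 were equal, with a median of 0.00, where 0.0776% of all genes passed 1.5-fold. Over all genes above the floor, 3109 were higher with noggin, 4191 lower and 4294 equal. Lower values thus outnumbered higher ones among all genes with either treatment. The direction counts of this and every later list are to be read beside these counts. Between BMP4 and noggin that share was 0.518%, and a count of 0 among 8 genes is near the background in all 3 comparisons. At a lower limit of 1.2-fold, 1 of the 8 genes passed in each comparison. It was Rhox9 for BMP4 and for noggin against untreated cells, where 3.84% and 2.79% of all genes passed, and Krt19 for BMP4 against noggin, where 6.63% did.

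**Figure D1:**
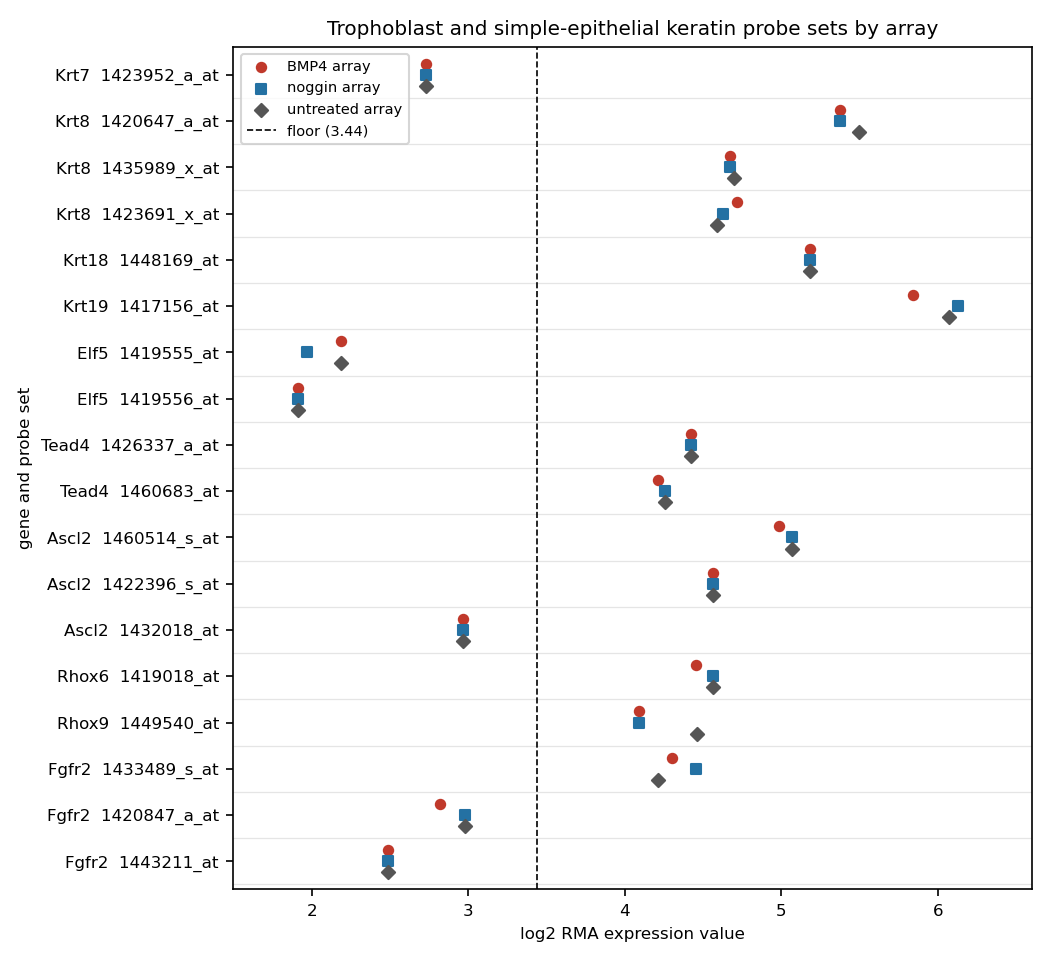
Log2 RMA values of the 18 probe sets (rows, named by gene and probe set) on the BMP4 array (circles), the noggin array (squares) and the untreated array (diamonds), 1 array each, with the floor of 3.44 as a dashed line. Both Elf5 probe sets and that of Krt7 lie left of the floor, and the 3 symbols of Krt18 stand at the same value of 5.18.

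Exactly equal values need a word before the genes are read one by one. Median polish, the last step of RMA, can return the same summary for several arrays, and 3 of the 10 genes, Krt7, Krt18 and Tead4, agreed to 6 decimals in all 3 conditions. Of the 8 genes above the floor, 2 did so (25%), Krt18 and Tead4, and among all genes above the floor the share was 24.7%. A difference of 0.00 therefore shows that no difference was resolved, not that the transcript was unchanged. For 2 further genes, Krt8 and Rhox9, the BMP4 and noggin values were identical and the untreated value stood apart, as in 8.23% of all genes. Their differences from the untreated array are then the same number for both treatments and rest on the 1 untreated array.

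Krt8, a type II keratin, and Krt18, its type I partner, form the filaments of the trophectoderm and of most simple epithelia. Krt8 (probe set 1420647_a_at) measured 5.37 with BMP4 and 5.37 with noggin, against 5.49 in untreated cells. The difference was −0.12 for both treatments, and 16.9% of all genes above the floor were at least as far apart between BMP4 and untreated cells. The other Krt8 probe sets did not share one direction. Probe set 1423691_x_at measured 4.71 with BMP4, 4.63 with noggin and 4.59 in untreated cells, so it was highest with BMP4. Probe set 1435989_x_at measured 4.67 with BMP4 and 4.67 with noggin, against 4.70 in untreated cells. Across the 3 Krt8 probe sets the BMP4 difference ran from −0.12 to 0.12, about 0, and probe sets with the suffix x can contain probes that also match other transcripts. Krt18 (probe set 1448169_at) measured 5.18 on each of the 3 arrays.

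Krt8 and Krt18 are neighbours on mouse chromosome 15, with no protein-coding gene between them, although one is type II and the other type I. Their promoters are shown because the 2 chains are made as a pair and neither transcript stood apart with BMP4. Each window holds 250 bases before and 50 after the annotated start, from RefSeq on GRCm38.p6, at chr15:102004293-102004592 on the minus strand for Krt8 and chr15:102027966-102028265 on the plus strand for Krt18. Capitals mark matches on either strand to any of 5 motifs: GGCGCC, the GC-rich SMAD motif of BMP target genes, GTCTAGAC, the SMAD palindrome, GGAATG, read by TEAD factors, TGANTCA, read by AP-1, and TATAAA, the TATA box.
Krt8: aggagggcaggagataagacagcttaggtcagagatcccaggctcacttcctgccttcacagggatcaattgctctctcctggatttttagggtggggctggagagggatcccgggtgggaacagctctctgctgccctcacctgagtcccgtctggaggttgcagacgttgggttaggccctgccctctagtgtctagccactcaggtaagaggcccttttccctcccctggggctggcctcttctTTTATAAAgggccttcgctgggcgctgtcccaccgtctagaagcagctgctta
Krt18: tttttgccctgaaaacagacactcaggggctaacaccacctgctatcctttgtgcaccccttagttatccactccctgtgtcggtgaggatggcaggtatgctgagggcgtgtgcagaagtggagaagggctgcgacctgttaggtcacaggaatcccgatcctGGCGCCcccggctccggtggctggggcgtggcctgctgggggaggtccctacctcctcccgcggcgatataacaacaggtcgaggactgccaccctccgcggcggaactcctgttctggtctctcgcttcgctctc
The Krt8 window held TATAAA and its reverse, overlapping, across the annotated start, and none of the other 4 motifs. The Krt18 window held GGCGCC once, beginning 86 bases before the start, and none of the others. Among the 32851 promoter windows of that length, 11.9% held GGCGCC, 0.213% the SMAD palindrome, 14.7% the TEAD motif, 7.81% the AP-1 motif and 13.6% the TATA box.

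Krt19, a type I keratin of simple epithelia, showed the widest spread over the 3 arrays among Krt7, Krt8, Krt18 and Krt19. It measured 5.84 with BMP4 and 6.13 with noggin, against 6.07 in untreated cells. The BMP4 value was the lowest of the 3 and the noggin value the highest. The difference was −0.23 for BMP4 minus untreated, a ratio of 0.853, and 5.38% of all genes were at least as far apart. For noggin minus untreated it was 0.06, and for BMP4 minus noggin −0.29, where 5.15% of genes were at least as far apart. Krt19 was the 1 gene of the 10 whose highest value, 6.13, passed the 75th percentile of all values, 6.04. It has a single probe set, so no second measurement on the same arrays was available.

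Krt7, the type II keratin usually found with Krt19 in glandular and trophoblast cells, measured 2.73 on all 3 arrays, below the floor. Of the 40 other keratin genes with a probe set, 8 were above the floor, where 63.7% of all genes were. With BMP4, 1 of the 8 was higher than in untreated cells, 4 were lower and 3 were equal (median −0.0073), and none differed by 1.5-fold. With noggin, 2 were higher, 4 lower and 2 equal, also with a median of −0.0073. The largest difference among them was that of Krt10, a type I keratin of the epidermis, which measured 4.67 with noggin against 4.99 in untreated cells, a difference of −0.31. Krt42 measured 7.68 on all 3 arrays by the probe set that stood for it and was at −0.37 for noggin minus untreated by its other one. Krt17 stood between 5.03 and 5.04, and Krt81 measured 5.38 with noggin against 5.25 in untreated cells.

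Elf5, an ETS-family factor of trophoblast stem cells whose promoter is known to be methylated in mouse ES cells, was below the floor. Its first probe set measured 2.19 with BMP4 and 1.97 with noggin, against 2.19 in untreated cells. The second measured 1.91 on all 3. The noggin difference of −0.22 thus lies between values in the background, where the lower tail of the arrays also differed, with a 5th percentile of 1.60 with noggin against 1.82 in untreated cells. Of 6 other ELF and ETS genes above the floor, 2 were higher with BMP4, 2 lower and 2 equal, and 3 were higher with noggin, 1 lower and 2 equal; Etv4 was at 0.21, or 0.00 by its second probe set, and Etv5 at −0.17, or −0.05 and 0.06 by its others, for BMP4 minus untreated, and Elf2 at 0.00, or 0.56 by its second probe set above the floor.

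Tead4, the TEA-domain factor needed for the trophectoderm, measured 4.42 on all 3 arrays. Its second probe set measured 4.21 with BMP4, against 4.26 with noggin and 4.26 in untreated cells. The difference of −0.05 is smaller than 0.13, the within-gene SD of BMP4 minus untreated differences over 13666 probe sets. That SD holds no variation between arrays and is no replicate spread. Among 17 other genes of the TEAD-YAP axis above the floor, 6 were higher with BMP4, 5 lower and 6 equal, with a median of 0.00, and 7 were higher with noggin, 2 lower and 8 equal. Yap1, the co-activator, measured 8.45 on all 3 arrays by one probe set, and 6.66 with BMP4 and 6.34 with noggin, against 6.43 in untreated cells, by its second. Ccn2, which encodes a matrix-associated protein and is a common readout of YAP activity but also of TGF-beta signals, measured 6.97 with BMP4 against 5.89 in untreated cells, 1.09 higher. Its relative Ccn1 measured 4.67 with BMP4 and 4.67 with noggin, against 4.33 in untreated cells, while its other probe set above the floor measured 4.07 with BMP4 and 3.65 with noggin, against 3.65 in untreated cells. Both Ccn1 probe sets were thus higher with BMP4, and 1 of them with noggin.

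Ascl2, an imprinted basic helix-loop-helix factor needed for the spongiotrophoblast, measured 4.98 with BMP4 and 5.06 with noggin, against 5.06 in untreated cells. The BMP4 difference was −0.08, and 26.7% of all genes were at least as far apart. The other 2 probe sets measured 4.56 and 2.97, each with the same value on all 3 arrays. Around Ascl2 lies a cluster of imprinted genes active in the placenta. Of 9 genes above the floor in the list of that neighbourhood and related imprinted genes, 3 were higher with BMP4, 3 lower and 3 equal, and the counts with noggin were the same. Phlda2, which restrains placental growth, measured 6.84 with BMP4 and 6.53 with noggin, against 6.70 in untreated cells. Slc22a18 measured 4.59 with noggin against 4.90 in untreated cells, a difference of −0.31.

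Rhox6 and Rhox9 are X-linked homeobox genes of the reproductive tract and placenta, from 1 gene cluster, with 2 protein-coding genes between them. Rhox6 measured 4.45 with BMP4 and 4.56 with noggin, against 4.56 in untreated cells. The BMP4 value alone stood apart, by −0.11, and 19.9% of all genes were at least as far apart. Rhox9 measured 4.09 with BMP4 and 4.09 with noggin, against 4.46 in untreated cells. That difference of −0.37, a ratio of 0.774, was the largest of the 10 genes for either treatment. Among all genes above the floor, 1.48% were at least as far apart between BMP4 and untreated cells and 0.716% between noggin and untreated cells. The Rhox9 values for BMP4 and for its antagonist were identical. Both genes have a single probe set, and both belong to a family of closely related copies, for which cross-hybridisation of probes was not tested. Of the family's other genes, Rhox5 measured 10.86 on all 3 arrays, and Rhox13 measured 8.71 with BMP4 and 9.02 with noggin, against 9.03 in untreated cells.

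**Figure D2:**
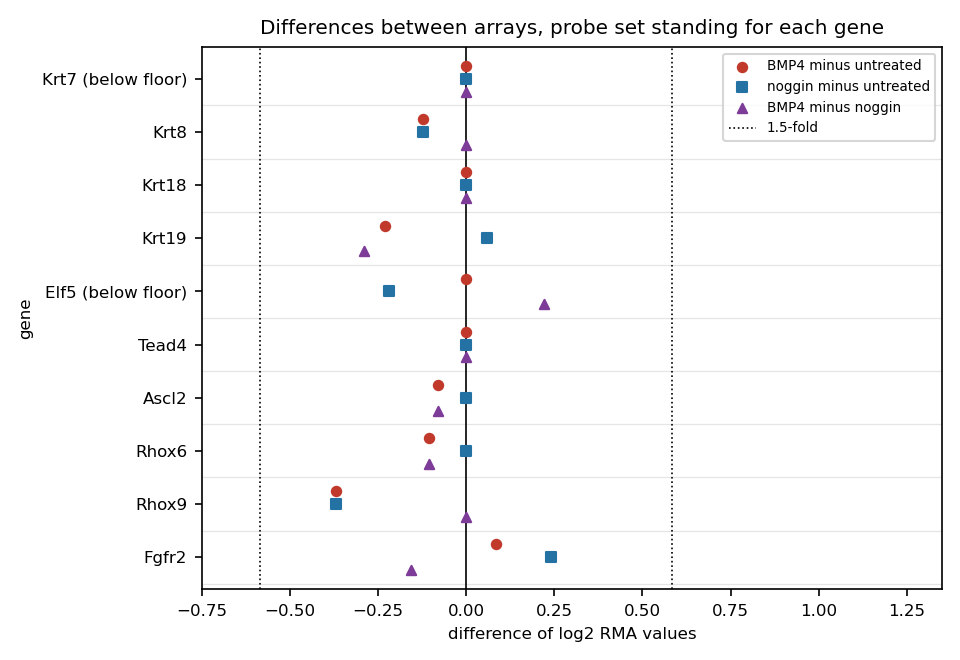
Differences of log2 RMA values for the probe set that stands for each of the 10 genes: BMP4 minus untreated (circles), noggin minus untreated (squares) and BMP4 minus noggin (triangles), with 1.5-fold as dotted lines. Every symbol lies between the dotted lines, and Rhox9, at −0.37 for both treatments, lies furthest from 0.

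The 5 genes above the floor whose values over the 3 arrays, each centred on its own mean, lay nearest to those of Rhox9 were 5330411J11Rik, Sgip1, Zfp458, Inca1 and Timm8a2. Likeness was measured as the Euclidean distance over 3 arrays, which ranged from 0.0014 to 0.03. For 4 of the 5 the BMP4 and noggin values were identical too, and the differences of the 5 from untreated cells ran from −0.33 to −0.40 with BMP4. Sgip1, for example, measured 3.10 with BMP4 and 3.10 with noggin, against 3.46 in untreated cells. Sgip1, Zfp458 and Inca1 were above the floor on the untreated array alone and below it with either treatment. They were kept through their untreated value, so the choice of genes itself favours this shape for them. 5330411J11Rik and Timm8a2 were above the floor on all 3 arrays. Over 3 arrays such likeness is a description of shape alone.

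Fgfr2, the receptor for FGF signals in trophoblast, was the 1 gene of the 8 that was higher with BMP4. It measured 4.30 with BMP4 and 4.45 with noggin, against 4.21 in untreated cells. Noggin gave the highest value, 0.24 above untreated cells, and 3.73% of all genes were at least as far apart. The other 2 probe sets were below the floor. One measured 2.82 with BMP4, against 2.98 with noggin and 2.98 in untreated cells, and the other 2.49 on each array to 2 decimals. The noggin difference therefore rests on 1 probe set of the 3, whose suffix s marks probes shared by several transcripts. Of 8 further genes for FGF receptors, ligands and adaptors above the floor, 5 were higher with BMP4, 1 lower and 2 equal (median 0.07), and 6 were higher with noggin and 2 lower (median 0.08). Fgf4, the ligand that inner cells send to the trophectoderm, measured 9.14 with BMP4 and 9.05 with noggin, against 8.95 in untreated cells. Its 3 probe sets above the floor ran from 0.15 to 0.40 for BMP4 minus untreated and from −0.13 to 0.10 for noggin minus untreated. Fgfr1 measured 7.77 with either treatment against 7.66 in untreated cells, and its other probe sets above the floor were at 0.00 and 0.26 for BMP4 minus untreated and 0.00 and 0.20 for noggin minus untreated. Fgfrl1 measured 5.79 with either treatment against 5.60 in untreated cells, but its second probe set measured 5.46 with BMP4 and 4.89 with noggin, against 5.17 in untreated cells, so that the noggin difference had opposite signs in the 2 probe sets. Fgf15 measured 3.91 with noggin against 4.27 in untreated cells.

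**Figure D3:**
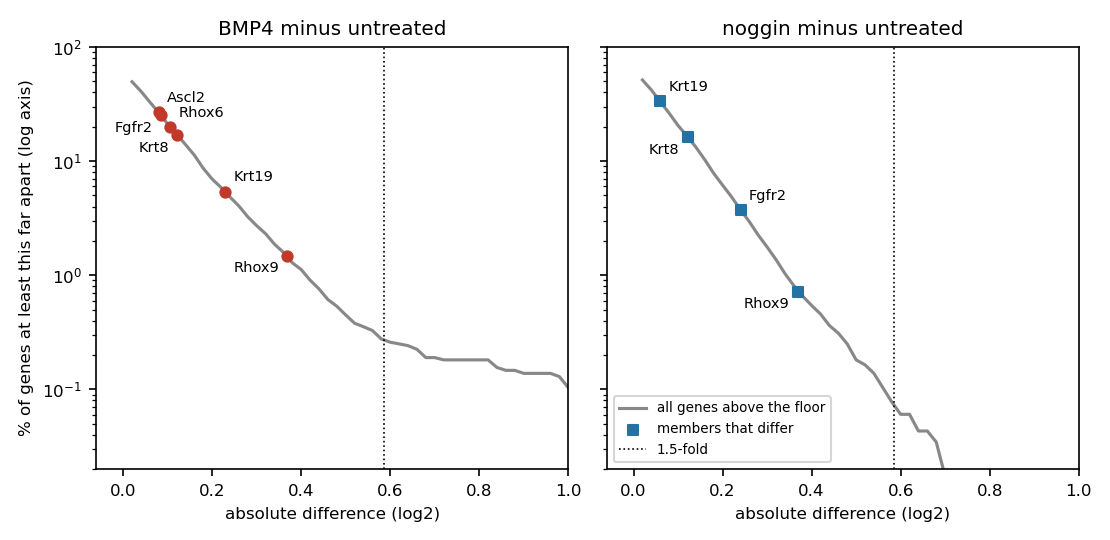
Percentage of the 11594 genes above the floor (vertical log axis) that differed by at least the absolute log2 difference on the horizontal axis, for BMP4 minus untreated (left) and noggin minus untreated (right), as a grey line. Symbols place the genes of the 10 that are above the floor and not exactly equal; Rhox9 sits at 1.48% and 0.716%, and the 1.5-fold limit is dotted.

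A list of 8 genes was set up to check the response to BMP4. It was chosen with earlier results of these data known, so its counts describe these arrays and are no independent support for a response. All 8 genes were higher with BMP4 than in untreated cells, with a median of 1.19. At least 1.5-fold higher were 6 of them, where 0.224% of all genes were that much higher. Id1, an inhibitor of basic helix-loop-helix factors, measured 11.54 with BMP4 and 8.59 with noggin, against 8.78 in untreated cells. With noggin, 2 of the 8 were higher, 5 lower and 1 equal, with a median of −0.10. Poly-A spikes, bacterial control RNAs that go through labelling with the sample, were lower with BMP4 for all 24 probe sets, with a median of −0.63, and lower with noggin for 23 of 24, with a median of −0.18. Their part in the small negative differences of Krt8, Krt19, Ascl2, Rhox6 and Rhox9 was not tested.

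Other regulators of trophoblast included genes with higher values with BMP4. Of 16 such genes above the floor, from a list of 20, 8 were higher with BMP4, 2 lower and 6 equal (median 0.01). Id2 and Gata2, 2 of the 16, passed 1.5-fold upwards, where 0.224% of all genes did. Id2 also belongs to the list that checks the BMP4 response, so it is counted in both lists. The list of regulators, too, was chosen with earlier results of these data known. Its counts describe these arrays and are no independent support for a response. With noggin, 4 were higher, 8 lower and 4 equal (median −0.01), and none passed 1.5-fold. Gata2, a zinc finger factor of trophoblast and blood, measured 5.81 with BMP4 and 4.34 with noggin, against 4.81 in untreated cells, and its second probe set 3.72 with BMP4 and 3.33 with noggin, against 3.45 in untreated cells. Eomes, a T-box factor of trophoblast and mesoderm, measured 6.38 with BMP4 and 5.81 with noggin, against 5.92 in untreated cells, and the BMP4 difference was 0.46 by this probe set and 0.11 by the second. Tfap2c, an AP-2 factor of trophoblast and germ cells, measured 7.48 with BMP4 and 6.99 with noggin, against 7.10 in untreated cells, and its 3 probe sets were 0.35 to 0.46 higher with BMP4. In Sbno1 the difference of 0.42 was seen in 1 probe set of 5, the others running from −0.01 to 0.07. Gata3 and Cdx2, named here after their values were seen, were below the floor on every array: Gata3 measured 2.65 with BMP4 and 2.05 with noggin, against 2.13 in untreated cells, and Cdx2 2.67 with BMP4 and 2.53 with noggin, against 2.70 in untreated cells.

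The promoter of Gata2 is set beside those of Krt8 and Krt18 as that of a trophoblast regulator with a higher value on the BMP4 array. RefSeq gives 2 windows for Gata2, and the second, at chr6:88198414-88198713 on the plus strand of GRCm38.p6, is printed with the same motifs in capitals.
Gata2: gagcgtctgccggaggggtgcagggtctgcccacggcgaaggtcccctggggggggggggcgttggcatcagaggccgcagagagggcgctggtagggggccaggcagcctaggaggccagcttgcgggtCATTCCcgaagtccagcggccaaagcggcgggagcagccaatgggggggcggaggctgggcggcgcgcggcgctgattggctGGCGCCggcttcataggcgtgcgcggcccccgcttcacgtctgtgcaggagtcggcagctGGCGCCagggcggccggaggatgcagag
It held GGCGCC at 2 places, 38 bases before and 22 bases after the annotated start, and the reverse of GGAATG once, 120 bases before it. The first Gata2 window held none of the 5 motifs. Among windows of other genes that were higher with BMP4, that of Id2 held GGCGCC once, and those of Id3, Msx2, Smad6 and Eomes did not hold GGCGCC. The Smad6 window held the SMAD palindrome GTCTAGAC once, beginning 4 bases before the start, as 0.213% of all windows held it. The Id3 window held the TEAD motif once, as CATTCC 203 bases before the start. The window of Gata3, below the floor, held GGCGCC at 2 places. The Gata2 window printed is therefore 1 example and does not stand for those genes. Of the 10 genes, 6 had a window in the table, 7 windows in all. GGCGCC was found in 1 of the 7, that of Krt18, and the TEAD motif in 1, the first window of Elf5, as CATTCC 173 bases before the start. A match is a run of letters and was not tested as a binding site.

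**Figure D4:**
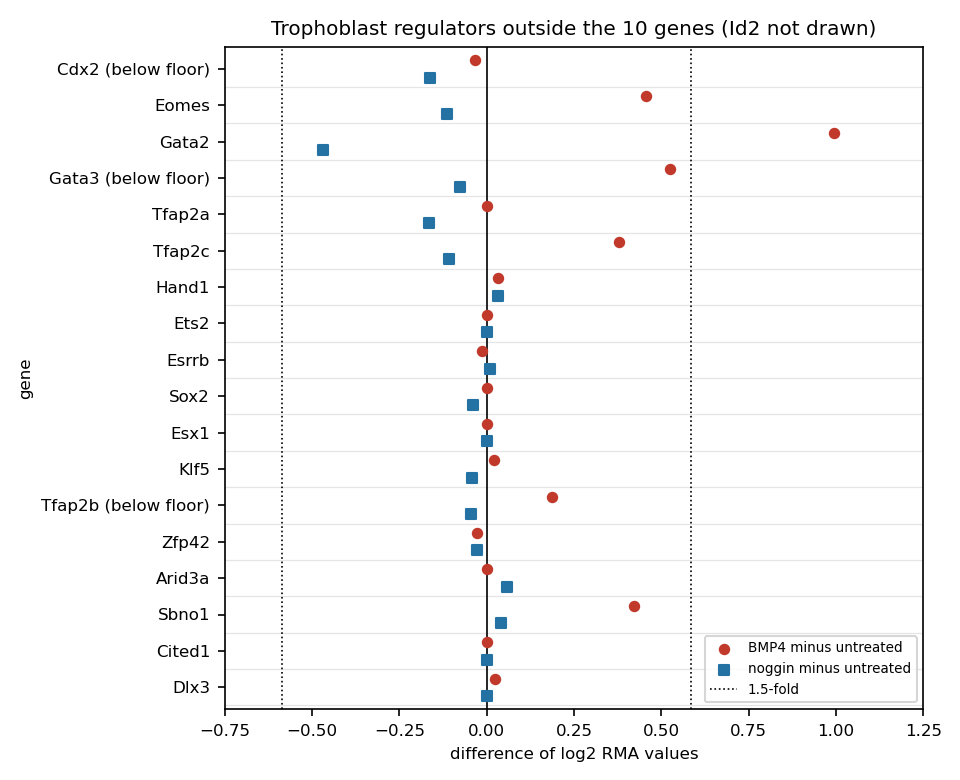
Differences of log2 RMA values for 18 trophoblast regulators that are not among the 10 genes, BMP4 minus untreated (circles) and noggin minus untreated (squares), with 1.5-fold as dotted lines; Id2, at 4.10 for BMP4, is not drawn. Gata2 is the 1 gene drawn beyond a dotted line, at 0.99, and Eomes, Tfap2c and Sbno1 lie between 0.38 and 0.46.

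Of 17 genes made by the differentiated placenta or the blastocyst epithelium with a probe set, 11 were above the floor, where 63.7% of all genes were. With BMP4 4 of these were higher than in untreated cells, 1 lower and 6 equal, and with noggin 1 was higher, 4 lower and 6 equal, with medians of 0.00. Peg10, an imprinted gene derived from a retrotransposon and needed for the placenta, measured 4.01 with BMP4 and 3.33 with noggin, against 3.55 in untreated cells, so that BMP4 and noggin lay 0.68 apart. Aqp3 and Atp1b1, a water channel and a sodium pump subunit that serve fluid transport in the blastocyst, differed by 0.03 and −0.11 for BMP4 minus untreated by the probe sets that stood for them. Their probe sets above the floor did not share 1 value: those of Aqp3 ran from 0.03 to 0.32, and those of Atp1b1 from −0.11 to 0.20, on both sides of 0.

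Proteins that anchor keratin filaments or seal epithelia were measured in 21 genes above the floor. With BMP4, 6 were higher, 9 lower and 6 equal, and with noggin 8 were higher, 6 lower and 7 equal, with medians of 0.00. Plec, whose protein plectin ties intermediate filaments to other structures, measured 7.62 with BMP4 and 8.18 with noggin, against 8.12 in untreated cells, and its second probe set above the floor 6.57 with BMP4 and 6.84 with noggin, against 6.63 in untreated cells. Esrp1, an epithelial splicing factor, was at −0.32 for BMP4 minus untreated. Cdh1 and Epcam, surface proteins of epithelia and of ES cells, were both at 0.00 for BMP4 minus untreated. Of 12 other intermediate filament genes, 5 were higher with BMP4, 5 lower and 2 equal (median 0.00), and 3 were higher with noggin, 7 lower and 2 equal (median −0.0083). Vim, the vimentin gene, measured 10.15 with BMP4 and 10.16 with noggin, against 10.14 in untreated cells, and its other probe sets were at −0.11 and −0.16 for BMP4 minus untreated and −0.15 and −0.16 for noggin minus untreated. The neurofilament gene Nefl was at −0.38 and −0.35 for BMP4 minus untreated by its 2 probe sets, and at −0.21 and 0.20 for noggin minus untreated, with opposite signs.

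Marker genes placed the cells as ES cells on all 3 arrays. All 9 ES cell markers were above the floor, with summed log2 values of 99.96 with BMP4 and 99.38 with noggin, against 99.48 in untreated cells. Of 7 measured trophectoderm and trophoblast markers, 3, Eomes, Hand1 and Esx1, were above the floor. Among all genes, 63.7% were above it on at least 1 array. Sums over all 7, with those below the floor included, were 26.28 with BMP4 and 24.48 with noggin, against 25.30 in untreated cells. Part of these differences lay below the floor. There Gata3 was at 0.52 for BMP4 minus untreated, and Tpbpa at −0.50 for noggin minus untreated. Markers of primitive and visceral endoderm, whose cells also make keratins 8 and 18, were above the floor in 7 of 10 cases with BMP4, 6 with noggin and 7 in untreated cells. Their sums, over all 10, were 37.96 with BMP4 and 35.94 with noggin, against 36.12 in untreated cells. Of these markers, Sox7 was 0.99 and Gata6 0.52 (0.90 by its second probe set) higher with BMP4, and Afp and Foxa2 were below the floor. Of 10 fibroblast markers, 5 were above the floor with BMP4, 6 with noggin and 5 in untreated cells, and Col1a1 and Lum were below it throughout. Sums over all 10 were 34.93 with BMP4 and 36.60 with noggin, against 36.66 in untreated cells. For BMP4 minus untreated, 4 of the 6 fibroblast markers above the floor on any array were lower, 1 was higher and 1 equal. S100a4 was at −0.55, Fbln2 at −0.37, Postn at −0.32 and Col1a2 at −0.17, while Thy1 was at 0.02 and Dcn at 0.00. Postn was above the floor only with noggin, so its difference lies between values below it. The part of these other cells in the values of Krt8, Krt18 and Krt19 was not tested, and in a whole culture fewer cells of a type and less RNA per cell cannot be told apart.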

How the data were processed

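RNA from R1 cells was isolated with a column kit and biotin-labelled for Affymetrix arrays, per the labels' protocols. The values deposited by the authors are log2 expression values, 1 for each of 45101 probe sets on 3 arrays, from RMA per the submitters' processing notes. The RMA version, its settings and the genome build are not given in the sources used here. RMA corrects background, makes the arrays' distributions alike by quantile normalization, so that a change in total RNA cannot be seen, and summarises probes by median polish.

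Gene names came from the platform annotation (34945 with 1 gene symbol, 932 with several, 9160 with none, 64 controls); all 10 gene identifiers carried the same symbol in RefSeq. Values were used as deposited, with Python 3.11.15 and pandas 2.3.3. The number of arrays, 3, limits the precision, and no read depth applies. Differences were counted at 1.5-fold without a test. The counting was tested on simulated data. Genes outside the 10 were named if above the floor and differing by at least 0.3 in any comparison, or among the 3 with the highest untreated value of their list, of which the text prints some. The members and lists were chosen with earlier results of these data known. Alternatives were other floors and limits, averaged or plain-suffix probe sets, and median-centred or loess-corrected (span 0.3) differences. Protein sequences were not used here.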

Additional observations from a re-analysis of the deposited data

How the results depend on the processing

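The count of 0 among the 10 genes at 1.5-fold was the same in all 3 comparisons with no floor, a floor at the 75th percentile, averaged probe sets, a limit of 2-fold and median-centred differences. Of these settings, the 2-fold limit, the higher floor, which left Krt19 alone, and the centring, with a shift of 0.00, could not have raised the count. Only the settings with no floor and with averaged probe sets could have changed it. At a limit of 1.2-fold the count was 1 for BMP4 against untreated, 1 for noggin against untreated and 1 for BMP4 against noggin, with Rhox9 in both comparisons with untreated cells and Krt19 between BMP4 and noggin. With averaged probe sets 7 genes rather than 8 were above the floor. The median BMP4 minus untreated difference ranged from −0.09 to −0.03 over the 4 alternatives and the values as deposited. Median-centring shifted no comparison (0.00), and loess moved no gene above the floor among the 10 by more than 0.02. Of 114 recomputed differences of the 10 genes, 111 moved by less than the within-gene SD of probe sets, and 3 moved by more. Many could not move: 30 were median-centred, with a shift of 0.00, and averaging leaves the 5 genes with 1 probe set as they are. That SD is scatter between probe sets on the same arrays. It holds no variation between arrays and is no replicate spread. For noggin minus untreated, Elf5 was at −0.11 and Fgfr2 at 0.08 with averaged probe sets, and Fgfr2 at −0.0020 with plain-suffix probe sets. For the genes named from the lists, 660 of 720 moved by less than that SD, and 186 of the 720 were median-centred and could not move. With averaged probe sets the BMP4 difference of Gata2 was 0.63 and that of Eomes 0.28. With plain-suffix probe sets Ccn1, then below the floor, was at −0.40 for noggin minus untreated, against 0.34 as reported. No paired analysis was possible because each condition has 1 array. Depth does not apply to arrays; Krt7 and Elf5 lay below the floor, where true differences may not register.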

Other observations

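Values recurred across unrelated probe sets. Of the 45037 probe sets other than controls, 69.8% with BMP4 and 65.0% with noggin shared their value to 6 decimals with at least 1 other probe set, against 71.7% in untreated cells. Rhox6 and the second Ascl2 probe set, for example, both measured 4.56 on the untreated array, a value that 39 other probe sets shared with each of them. The untreated values of Krt18, Krt8 (probe set 1420647_a_at) and Krt7 recurred in 33, 53 and 169 other probe sets, and that of the first Elf5 probe set in 615. Those of Krt19, Rhox9 and the Fgfr2 probe set above the floor recurred in 0 others. The noggin minus untreated difference of Rhox9, −0.37, was met to 6 decimals in 2 other probe sets, 1 of them the dimmer of both Krt42 probe sets. The cause was not tested.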
